A study of Mus musculus with 11 samples.

Results

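The B lineage and immunoglobulin genes were examined in dendritic cells sorted from mouse spleen. The group holds 47 of the 22180 genes tested: 16 genes of mature B cells and 11 of B cell precursors, taken from a list, and 20 immunoglobulin genes found by their symbols. Expression was measured on 5 arrays of dendritic cells from Eµ-Myc transfer mice (exposed) and on 6 arrays from naive mice. Every array is labelled C57BL/6 and splenic dendritic cells, sorted as CD11c- and MHC class II-positive to a purity above 95%. Eµ-Myc cells are B lineage lymphoma cells that carry Myc under an immunoglobulin heavy chain enhancer, and the average tumour load stated for the spleens of transfer mice was 10 to 36% of lymphocytes. Age, sex and the number of mice per array were not given in the sources used here, so p-values measure the spread between these arrays, which may be partly technical. All values are log2 expression after RMA, a method that corrects, normalises and summarises array signals.

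Mature B cells read antigen through a surface immunoglobulin whose signal passes through the paired chains CD79A and CD79B to kinases and adaptors, while inhibitory receptors such as CD22 restrain it. In precursors, an immature receptor pairs the heavy chain with a surrogate light chain made of VPREB and IGLL1, while the RAG enzymes and terminal transferase cut and extend the gene segments that are joined into heavy and light chains. PAX5 and EBF1 hold the B lineage programme in place. Several of these genes are also transcribed in other blood cells, dendritic cells and macrophages among them.

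As a mark for dim signals, 1105 olfactory receptor genes, which these cells are not thought to use, had a median of 3.40 and a 95th percentile of 5.6. Of the 47 genes, 34 lay above 5.6 on average and 13 below it. The sorted cells carried Itgax, the gene of CD11c, at 11.98 ± 0.13 (SD, n = 5) in exposed and 12.11 ± 0.08 (SD, n = 6) in naive cells. Array medians ran from 5.53 to 5.61 and the correlations between arrays from 0.989 to 0.996. Arrays numbered 1 to 3 in their titles differed from arrays numbered 4 to 6 in 731 genes (3.30%), in a fit that also held the group. The labels do not say what the numbers mean. The differences of the B lineage genes that passed, and of some others, are therefore also given within the 2 number sets.

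The named markers of the B lineage were measured first. Cd79a lay at 8.57, 7.86, 8.35, 7.58 and 7.74 on exposed arrays 1, 2, 3, 4 and 6, and at 7.25 to 8.12 with a median of 7.62 on naive arrays. The groups overlapped, with 2 exposed arrays above all naive ones, and the difference of 0.36 ± 0.18 (SE) did not pass (adjusted p = 0.452, limma). Ms4a1, which encodes the B cell surface protein CD20, lay at 8.02, 7.50, 8.20, 8.09 and 7.95 on the exposed arrays and at 8.01 to 8.36 (median 8.13) on naive arrays, a difference of -0.21 ± 0.12 (SE; adjusted p = 0.506), or -0.10 without exposed array 2. Vpreb1, the surrogate light chain gene, stayed between 3.81 and 4.09 on exposed and between 3.89 and 4.20 on naive arrays, under the dim mark on every array. Its difference was -0.07 ± 0.08 (SE; 95% limits -0.24 to 0.09; adjusted p = 0.782). Arrays 1 to 3 and arrays 4 to 6 gave -0.22 and -0.18 for Ms4a1, and -0.16 and 0.03 for Vpreb1. Both mature markers were thus above the dim mark in each group, and the precursor marker was below it. In bulk samples, fewer cells of a type and less RNA per cell cannot be told apart.

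**Figure D1:**
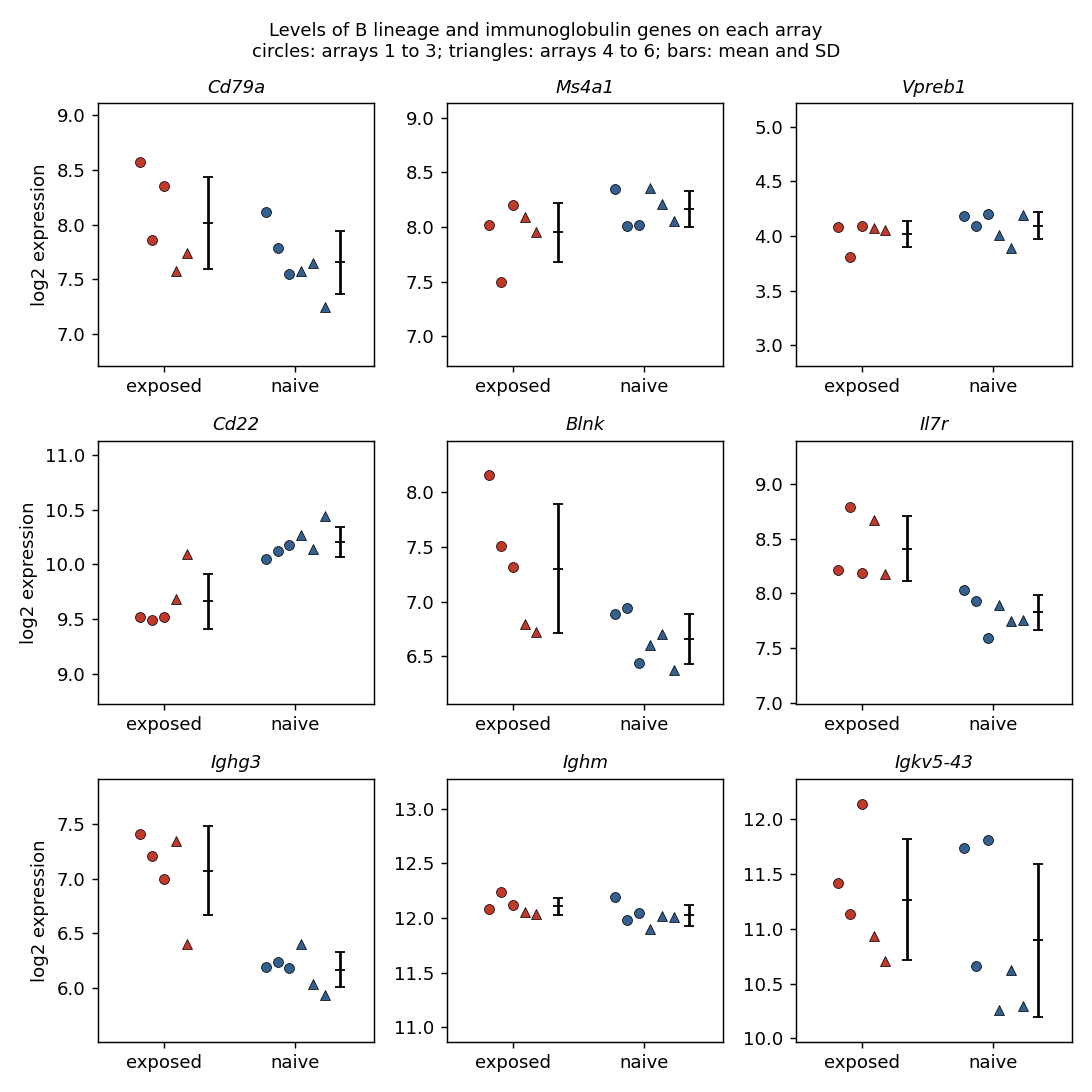
Log2 expression (vertical axis) of 9 genes on each of 5 exposed and 6 naive arrays, with circles for arrays 1 to 3, triangles for arrays 4 to 6, and the mean with SD beside each group. Il7r and Ighg3 lie higher and Cd22 lower on exposed arrays, while Ms4a1 and Vpreb1 overlap and Igkv5-43 is high on naive arrays 1 and 3.

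Over all genes 316 passed at a Benjamini-Hochberg adjusted p under 0.05, 1.42% of those tested, with 195 higher and 121 lower in exposed cells. With a common 75th percentile that balance turned, to 168 higher and 223 lower. Of the 47 genes 3 passed: Il7r and Ighg3 rose, where 0.879% of all genes rose, and Cd22 fell, where 0.546% fell. At an unadjusted p under 0.05 there were 11 of 47, beside 12.2% of all genes. By group, 1 of 16 mature, 1 of 11 precursor and 1 of 20 immunoglobulin genes passed. The median difference was 0.06 for the mature genes, 0.06 for the precursor genes and 0.43 for the immunoglobulin genes, beside 0.01 over all genes. Within arrays 1 to 3 these medians were 0.04, 0.07 and 0.29, beside 0.01. Within arrays 4 to 6 they were -0.02, 0.03 and 0.42, beside 0.00. Blocked on number set, 617 genes passed (2.78%) and 4 of the 47, which were the same 3 and Blk.

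**Figure D2:**
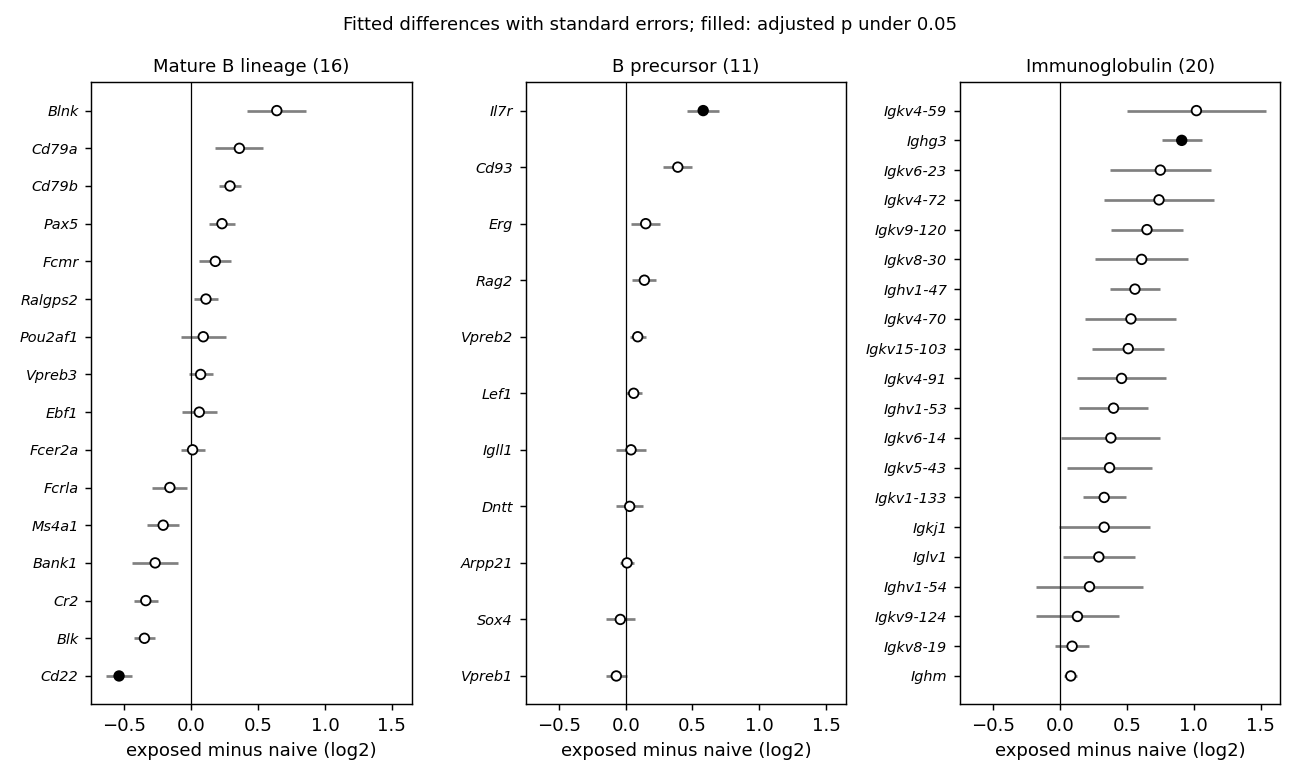
Fitted difference, exposed minus naive on the log2 scale (horizontal axis), with its standard error for each of the 16 mature, 11 precursor and 20 immunoglobulin genes; filled points passed at an adjusted p under 0.05. Cd22, Il7r and Ighg3 are the filled points, and all 20 immunoglobulin genes lie to the right of 0.

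Among the genes of B cell receptor signalling, the inhibitory receptor gene Cd22 fell in exposed cells. It lay at 9.52, 9.49, 9.52, 9.68 and 10.09 on exposed arrays 1, 2, 3, 4 and 6, against 10.05 to 10.44 with a median of 10.16 on naive arrays. Of these 5 arrays, 4 are below every naive array, and exposed array 6 lies just inside the naive range. The difference was -0.54 ± 0.10 (SE; 95% limits -0.77 to -0.32), or 1.46-fold lower (adjusted p = 0.0238, limma). The lower numbers alone gave -0.61, the higher numbers alone -0.40, and the fit blocked on number set -0.52 (adjusted p = 0.00611). The call held in 5 of the 11 fits that left out 1 array. It was lost without exposed array 2 (-0.50, adjusted p = 0.0743), exposed 3 (-0.51, 0.0577), naive 3 (-0.54, 0.0537), naive 4 (-0.53, 0.0511), naive 5 (-0.55, 0.0502) or naive 6 (-0.49, 0.0530).

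The 250 bases before the start of Cd22 are shown because Cd22 is the mature gene that passed, and because they hold a palindrome of the kind EBF1 binds. The motif searched was TCCCNNGGGA, which reads the same on both strands; capitals mark it, 49 to 40 bases before the start. The sequence is RefSeq's, from GRCm38.p6, chr7:30879029-30879278, minus strand.
Cd22: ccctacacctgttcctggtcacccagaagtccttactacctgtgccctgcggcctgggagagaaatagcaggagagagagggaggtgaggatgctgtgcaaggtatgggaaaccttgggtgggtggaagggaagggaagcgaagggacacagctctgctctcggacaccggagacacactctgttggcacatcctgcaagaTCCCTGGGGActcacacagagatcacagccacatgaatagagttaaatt

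Of the 47 genes, 23 had a window in the RefSeq promoter table, 40 windows in all, each reaching from 250 bases before to 50 after a start. Cd22 was the 1 gene of these 23 with that palindrome. It lay in 1 of the 40 windows, beside 0.904% of all 32851 windows. The octamer ATGCAAAT (ATTTGCAT on the other strand), the element of immunoglobulin promoters that POU2AF1 helps to read, was found in 2 of the 40 windows, those of Blnk and Vpreb3, and in 1.74% of all windows. The stretches around it are shown with the octamer in capitals. It lies 130 to 123 bases before the start of Blnk (chr19:40994318-40994377, minus strand) and 45 to 38 before that of Vpreb3 (chr10:75948229-75948288, plus strand), and the 2 motifs did not overlap in these windows. A match describes the letters and says nothing of binding here.
Blnk: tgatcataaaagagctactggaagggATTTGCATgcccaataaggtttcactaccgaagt
Vpreb3: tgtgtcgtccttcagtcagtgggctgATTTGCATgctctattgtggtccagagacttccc

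The other 6 signalling genes did not pass, and they lay on either side of 0. Blk, a Src family kinase, was at 7.16, 6.97, 7.01, 6.89 and 7.30 on the exposed arrays and at 7.30 to 7.58 (median 7.41) on naive arrays. Its difference of -0.35 ± 0.08 (SE) missed the threshold (adjusted p = 0.0542), and 4 exposed arrays lay below all naive ones. The lower numbers gave -0.33 and the higher -0.37, and Blk passed once blocked on number set (adjusted p = 0.0411) and without exposed array 6 (-0.41, adjusted p = 0.0196). Blnk, the adaptor that links the receptor to phospholipase C, had the largest positive difference of the mature genes, 0.64 ± 0.22 (SE; adjusted p = 0.203).

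Blnk lay at 8.16, 7.51, 7.32, 6.79 and 6.72 on exposed arrays 1, 2, 3, 4 and 6, and at 6.37 to 6.94 (median 6.65) on naive arrays. The first 3 exposed arrays are above all naive arrays and the others lie among them. The difference was 0.91 for the lower numbers and 0.20 for the higher; the interaction of group and number set had an unadjusted p of 0.0304 and an adjusted p of 0.992 in limma. Red pulp macrophage genes had the same order over the exposed arrays: the mean of the 10 measured markers was 10.14, 9.25, 8.46, 8.37 and 8.31 on the same exposed arrays and 7.70 to 8.83 on naive arrays, 9 of the 10 were above the dim mark, and 0 passed in limma (5 at an unadjusted p under 0.05), with Cd5l, a secreted macrophage protein, the largest at 1.89 (adjusted p = 0.0693, and 0.0400 blocked on number set, where Cd5l was the 1 marker that passed). The part of those cells in the Blnk values was not tested.

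Both signal chains of the receptor were measured. Cd79b lay at 9.18, 8.94, 8.97, 8.75 and 8.75 on the exposed arrays and at 8.49 to 8.75 (median 8.63) on naive arrays, a difference of 0.29 ± 0.08 (SE) that did not pass (adjusted p = 0.115). The lower numbers gave 0.44 and the higher 0.09 for Cd79b, and 0.44 and 0.17 for Cd79a. Bank1, a scaffold of B cell signalling, differed by -0.27 (adjusted p = 0.574), with exposed array 1 the highest of all 11 arrays at 9.63 the other 4 exposed arrays at 8.44 to 9.03, and the naive arrays at 9.03 to 9.37. Its difference was -0.46 without exposed array 1 (adjusted p = 0.0502) and -0.16 without exposed array 4 (adjusted p = 0.758). Ralgps2, an exchange factor for Ral GTPases, differed by 0.11 (adjusted p = 0.730).

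None of the 6 surface or secretory pathway genes of mature B cells passed in the limma fit over all genes; Cr2 alone had an unadjusted p under 0.05. Cr2, the complement receptor CD21, came nearest, at 6.17, 5.95, 6.32, 5.99 and 6.41 on the exposed arrays and 6.41 to 6.63 (median 6.52) on naive arrays. Its difference was -0.34 ± 0.09 (SE; adjusted p = 0.0748), with 4 exposed arrays below all naive ones, and it passed without exposed array 6 (-0.40, adjusted p = 0.0274). Fcmr, the Fc receptor for IgM, differed by 0.18, Fcer2a, the IgE receptor CD23, by 0.01, and Fcrla, an Fc receptor-like protein kept inside the cell, by -0.16. Vpreb3, a relative of the surrogate light chain, differed by 0.07 and was the 1 mature gene below the dim mark. Adjusted p-values of these 4 genes ran from 0.619 to 0.989.

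The 3 regulators of the lineage did not pass between exposed and naive cells. Pax5 lay at 6.31, 6.37, 6.18, 5.90 and 5.84 on the exposed arrays and at 5.78 to 5.97 (median 5.92) on naive arrays, a difference of 0.23 ± 0.10 (SE; adjusted p = 0.344), with 0.32 for the lower and 0.05 for the higher numbers. Exposed arrays 1 to 3 are above every naive array, and exposed arrays 4 and 6 are within the naive range. Ebf1 differed by 0.06 (adjusted p = 0.913) and Pou2af1, the octamer coactivator, by 0.09 (adjusted p = 0.898). Pax5 and Ebf1 lay near the dim mark of 5.6, and Ebf1 was below it on exposed array 4, at 5.56.

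Of the 11 precursor genes 6 lay below the dim mark. Among the 5 genes of receptor assembly these were Vpreb1, Igll1, Rag2 and Dntt, with Vpreb2 above it, and among the 6 surface and regulatory genes they were Erg and Arpp21. Igll1, the other part of the surrogate light chain, lay between 4.49 and 5.10 on exposed and between 4.54 and 4.97 on naive arrays. Rag2 lay at 4.00, 3.86, 3.56, 3.49 and 3.56 on the exposed arrays and at 3.51 to 3.63 on naive arrays, so that exposed arrays 1 and 2 are above the naive range. Dntt, the gene of terminal transferase, lay between 4.13 and 4.43 on exposed and between 4.11 and 4.63 on naive arrays. Differences were 0.04 for Igll1, 0.14 for Rag2, 0.03 for Dntt and 0.09 for Vpreb2, the near copy of Vpreb1, with adjusted p-values from 0.595 to 0.940. For the 4 dim genes, a difference was not detectable at these levels, which does not show that there was none.

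Il7r, the receptor chain for interleukin 7, which precursor B cells need to grow and which T cells and other lymphoid cells also carry, rose in exposed cells. It lay at 8.21, 8.79, 8.19, 8.67 and 8.18 on exposed arrays 1, 2, 3, 4 and 6, against 7.59 to 8.03 with a median of 7.83 on naive arrays. All exposed arrays are above all naive ones, which 1.42% of all genes show; 0.875% lie below throughout, and 2.29% do not overlap in one direction or the other. The difference was 0.58 ± 0.12 (SE; 95% limits 0.32 to 0.84), or 1.5-fold (adjusted p = 0.0311, limma), with 0.54 for the lower numbers, 0.62 for the higher and 0.58 blocked on number set (adjusted p = 0.0270). The call held in 4 of 11 fits with 1 array left out, and was lost without exposed array 2 (0.48, adjusted p = 0.0775), exposed 4 (0.52, 0.0694), naive 2 (0.60, 0.0584), naive 3 (0.53, 0.0758), naive 4 (0.59, 0.0560), naive 5 (0.57, 0.0778) or naive 6 (0.57, 0.0735). Of 11 T cell markers 8 were measured and 2 were above the dim mark; their mean ran from 5.18 to 5.38 on exposed and from 5.17 to 5.30 on naive arrays, and 0 passed in limma (4 at an unadjusted p under 0.05), with the T cell receptor chain gene Cd3g the largest at 0.34 (adjusted p = 0.169). Their part in the rise of Il7r was not tested.

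The 250 bases before the start of Il7r, the precursor gene that passed, hold neither motif, which says only that those letters are not in this window. They are RefSeq's, from GRCm38.p6, chr15:9529877-9530126, minus strand.
Il7r: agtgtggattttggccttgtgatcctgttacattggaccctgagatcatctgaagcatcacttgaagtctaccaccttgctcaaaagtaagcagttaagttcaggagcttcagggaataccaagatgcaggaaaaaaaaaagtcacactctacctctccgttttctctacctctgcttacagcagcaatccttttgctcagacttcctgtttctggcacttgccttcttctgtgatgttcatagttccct

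The other 5 genes of this kind did not pass. Cd93, a surface protein of early B cells that myeloid cells and endothelium also carry, lay at 6.77, 6.69, 6.73, 7.25 and 6.57 on the exposed arrays and at 6.20 to 6.53 (median 6.44) on naive arrays. All exposed arrays are above all naive ones, but the difference of 0.39 ± 0.11 (SE) did not pass (adjusted p = 0.0984). Exposed array 4 was the highest array for Cd93 and also for Erg (5.64), a transcription factor of stem cells and early lymphocytes. Erg differed by 0.15, Lef1, a transcription factor of the Wnt pathway, by 0.06, Arpp21, an RNA-binding phosphoprotein, by 0.01, and Sox4, a transcription factor of progenitors, by -0.04. After a shift of each array to a common 75th percentile, 6 of the 11 precursor genes were positive, in place of 9.

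The immunoglobulin genes found by symbol were the heavy chain constant genes Ighm and Ighg3, 3 heavy chain variable segments, 13 kappa variable segments, the kappa joining segment Igkj1 and the lambda segment Iglv1. Segments of one family are alike in sequence, so their probesets may share transcripts, and 5 further probesets that list several immunoglobulin genes were left out. Of the 20 genes, 14 lay above the dim mark. Every one of the 20 had a positive difference, from 0.08 to 1.02, where 53.5% of all genes had one, and this held under median centring, quantile normalisation and a common 75th percentile. It was 19 of 20 without naive array 2, exposed array 1 or exposed array 3. They are not independent of each other, and 1 of the 20 passed.

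Ighg3, the constant region of IgG3, rose in exposed cells. It lay at 7.41, 7.21, 7.0, 7.34 and 6.40 on exposed arrays 1, 2, 3, 4 and 6, against 5.94 to 6.40 with a median of 6.18 on naive arrays. Of the exposed arrays 4 are clear of the naive range, and exposed array 6 is level with naive array 4 to 2 decimals. The difference was 0.91 ± 0.15 (SE; 95% limits 0.58 to 1.24), or 1.87-fold (adjusted p = 0.0146, limma). The lower numbers gave 1.0, the higher 0.74 and the blocked fit 0.89 (adjusted p = 0.00917), and Ighg3 passed in all 11 fits with 1 array left out, at an adjusted p of 0.0471 at most. The other probeset of Ighg3, which lay below the dim mark, had a mean of 5.51 ± 0.13 (SD, n = 5) in exposed and 5.53 ± 0.30 (SD, n = 6) in naive cells, a difference of -0.01 (adjusted p = 0.981 over all probesets). The mean of both probesets gave 0.45 (adjusted p = 0.0299). A further probeset that lists Ighg3 together with Ighv1-47 and Ighm was left out of the fit. It had 10.77 ± 0.32 (SD, n = 5) in exposed and 10.39 ± 0.51 (SD, n = 6) in naive cells. Its difference was 0.38, with 1 exposed array above all naive ones.

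Ighm, the constant region of IgM, was level in its brightest probeset, at 12.10 ± 0.08 (SD, n = 5) in exposed and 12.02 ± 0.10 (SD, n = 6) in naive cells. The difference was 0.08 ± 0.05 (SE; 95% limits -0.03 to 0.19; adjusted p = 0.615). The platform names Ighm alone for 7 probesets, and the other 6 gave differences from -0.02 to 0.95 with adjusted p-values from 0.373 to 0.978 over all probesets. The widest of these had 7.11 ± 1.08 (SD, n = 5) in exposed and 6.15 ± 0.70 (SD, n = 6) in naive cells.

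The variable segments overlapped widely between the groups. Igkv4-59 had the largest difference, 1.02 ± 0.52 (SE; adjusted p = 0.477), at 6.69, 6.58, 8.03, 7.55 and 6.58 on exposed arrays 1, 2, 3, 4 and 6 and at 4.41 to 7.97 (median 5.92) on naive arrays. Arrays 1 to 3 alone gave 0.38 for it and arrays 4 to 6 alone 1.65. Igkv4-72 lay at 9.39, 9.08, 10.03, 9.13 and 8.59 on the exposed arrays and at 7.65 to 9.83 (median 8.03) on naive arrays, and Igkv9-120 at 8.85, 8.68, 9.91, 8.50 and 8.50 against 7.58 to 8.94 (median 8.11) on naive arrays. Exposed array 3 is the highest exposed array for all 3 segments. Their differences were 0.74 for Igkv4-72 (adjusted p = 0.520) and 0.65 for Igkv9-120 (adjusted p = 0.336). Igkv6-23 differed by 0.75 (adjusted p = 0.467), and lay below the dim mark on average.

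One array order ran through most segments. Naive array 1 or 3 was the highest of the 6 naive arrays for 17 of the 18 variable and joining segments, where this held for 35.0% of all genes; in the remaining segment, Igkv15-103 (named after its values were seen), naive array 5 was higher at 8.61. Exposed array 3 was the highest exposed array for 12 of the 18, beside 18.6% of all genes. These arrays were singled out from the same values, so the shares describe the pattern and do not test it. The segments may also share transcripts and are not independent of each other. The mean of the 20 immunoglobulin genes was 7.20, 6.90, 7.53, 6.76 and 6.76 on exposed arrays 1, 2, 3, 4 and 6, and 7.18, 6.22, 7.23, 6.27, 6.47 and 6.00 on naive arrays 1 to 6. Ighg3 did not share that order, since naive arrays 1 and 3 had 6.19 and 6.18 and naive array 4 was highest. Ighg3 and the segments therefore ranked the arrays differently.

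**Figure D3:**
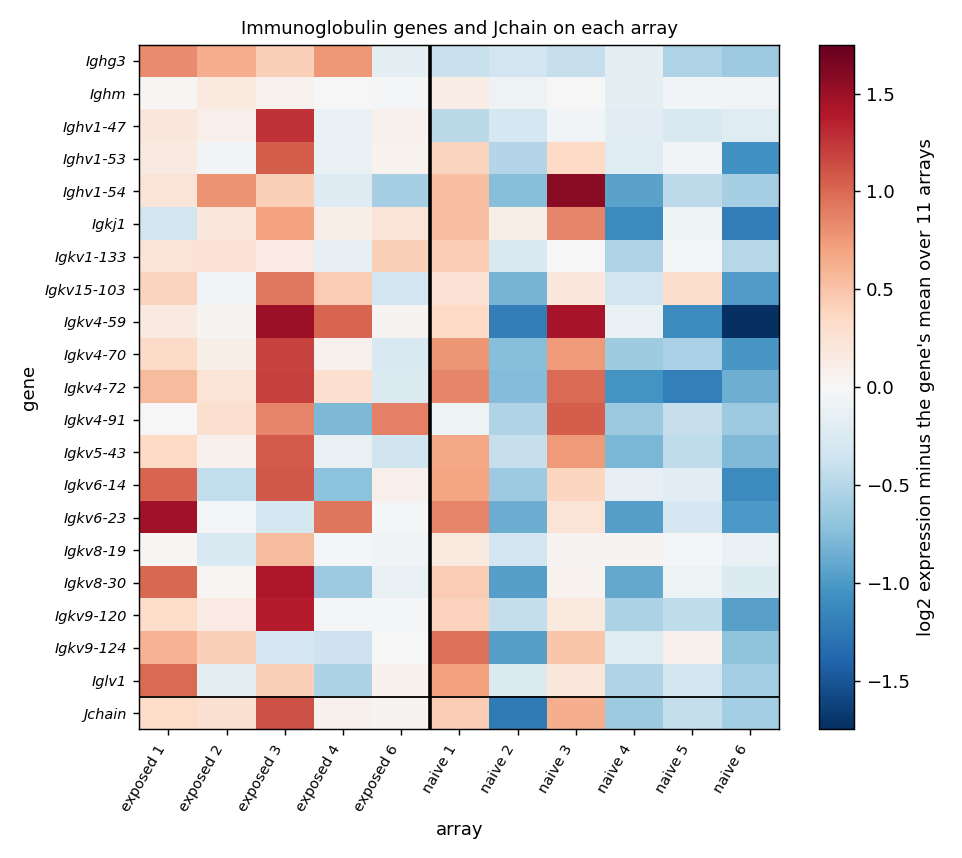
Heat map of log2 expression minus each gene's mean over the 11 arrays (colour), for the 20 immunoglobulin genes and Jchain (rows) on 5 exposed arrays, left of the black line, and 6 naive arrays. Most segments and Jchain are red on naive arrays 1 and 3 and on exposed array 3, while Ighg3 is red on exposed arrays 1 to 4.

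Jchain, which joins IgM and IgA units in antibody-secreting cells, followed the segments. It lay at 7.78, 7.73, 8.58, 7.53 and 7.51 on exposed arrays 1, 2, 3, 4 and 6, and at 7.90, 6.22, 8.09, 6.82, 7.04 and 6.86 on naive arrays 1 to 6. Naive arrays 1 and 3 and exposed array 3 are again the highest of their groups, and the difference of 0.67 ± 0.30 (SE) did not pass (adjusted p = 0.389). Other plasma cell genes differed less between the groups: Mzb1 by 0.11 and the surface proteoglycan gene Sdc1 by 0.17. Mzb1 was also highest on naive array 1 (6.58) and exposed array 3 (6.54), while the highest exposed array for Sdc1 was array 6 (6.05). Of 13 plasma cell markers 10 were above the dim mark, and 0 passed in limma, with 2 at an unadjusted p under 0.05. Their mean ran from 7.68 to 7.84 on exposed and from 7.60 to 7.77 on naive arrays. It was highest on exposed array 3 (7.84) and on naive arrays 1 and 3 (7.77 and 7.76). Naive array 1 or 3 was the highest naive array for 8 of the 13, Jchain among them, and exposed array 3 the highest exposed array for 3. The part of such cells in the immunoglobulin values was not tested.

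The number sets were compared directly in a fit that also held the group. Between arrays 4 to 6 and arrays 1 to 3, 731 genes passed (3.30%), 2.64% higher and 0.658% lower in arrays 4 to 6. That balance turned with a common 75th percentile, where 293 were higher and 491 lower. Of the 47 genes, 2 passed, both lower: Pou2af1, by -0.50 ± 0.11 (SE; adjusted p = 0.0269), and Igkv5-43, by -0.89 ± 0.21 (SE; adjusted p = 0.0411). Pou2af1 lay at 6.08 and 6.13 on exposed arrays 4 and 6 and 6.13, 6.18 and 5.85 on naive arrays 4 to 6, against 6.78, 6.23 and 6.78 on exposed arrays 1 to 3 and 6.74, 6.52 and 6.43 on naive arrays 1 to 3. No array of the higher numbers reached the lower numbers' range for Pou2af1. Igkv5-43 lay at 10.93 and 10.71 on exposed arrays 4 and 6 and 10.26, 10.62 and 10.29 on naive arrays 4 to 6, against 11.42, 11.14 and 12.14 on exposed arrays 1 to 3 and 11.74, 10.66 and 11.81 on naive arrays 1 to 3. Here naive array 2 lies within the range of the higher numbers. These values are those of the brightest probeset of Igkv5-43, and its dimmer probesets were not fitted between number sets. Between exposed and naive cells they differed by 0.77 and 0.61, beside 0.37 for the brightest (adjusted p = 0.491 and 0.618 over all probesets, limma). Exposed array 2 was their highest exposed array, at 7.83 and 6.06, and naive array 3 their highest naive array, at 6.80 and 5.85.

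All 20 immunoglobulin genes, which are not independent of each other, were lower in arrays 4 to 6, beside 53.7% of all genes, with a median of -0.61. The median was -0.11 for the mature and -0.02 for the precursor genes. Naive array 2 did not share this shift. Its mean of the 20 genes was 6.22, beside 7.18 and 7.23 on naive arrays 1 and 3 and 6.27, 6.47 and 6.00 on naive arrays 4 to 6. With 1 array left out, both calls were often lost while the differences stayed about as large. Pou2af1 was lost in 7 of 11 fits, with differences from -0.52 to -0.45 and an adjusted p from 0.0505 without naive array 2 to 0.0763 without exposed array 6, and also without naive 1, 4 and 6 and exposed 3 and 4. Igkv5-43 was lost in 9, with differences from -0.96 to -0.78, at 0.0519 without exposed array 1 to 0.116 without exposed array 6, and also without naive 1, 3, 4, 5 and 6 and exposed 3 and 4.

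Within the number sets, the direction between exposed and naive cells was shared by 18 of 20 immunoglobulin, 12 of 16 mature and 6 of 11 precursor genes, beside 58.5% of all genes. In limma the interaction of group and number set passed for 0 members, as for 0 genes overall (0%). At an unadjusted p under 0.05 there were 4 of 47, and 4.25% of all genes. The 4 genes are Cd79b, Blnk, Pax5 and Igkj1, named after their values were seen. Igkj1 differed by -0.30 in arrays 1 to 3 and by 0.96 in arrays 4 to 6.

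**Figure D4:**
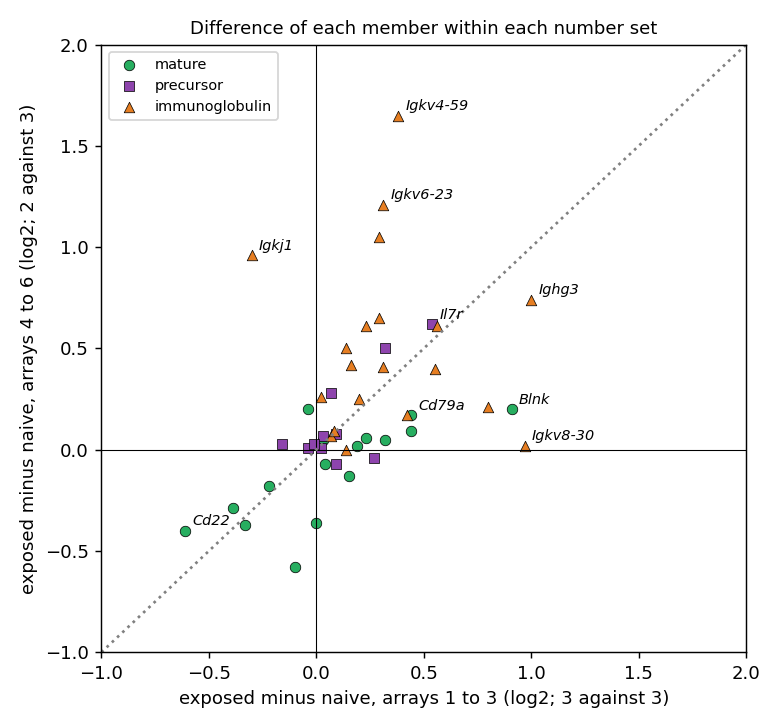
Difference, exposed minus naive on the log2 scale, of each of the 47 genes within arrays 1 to 3 (horizontal axis, 3 against 3) and within arrays 4 to 6 (vertical axis, 2 against 3), with the line of equal values dotted. Il7r and Ighg3 lie above 0 and Cd22 below 0 on both axes, Blnk lies at 0.91 and 0.20, and Igkj1 has opposite signs.

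In 3 general lists of other B cell genes, the 6 genes that passed all fell, where 0.546% of all genes fell and 0.879% rose. Of 24 measured receptor pathway genes 2 fell and 0 rose: Stap1, an adaptor downstream of tyrosine kinases, by -0.43 (adjusted p = 0.00229), and Malt1, the protease that links the receptor to NF-kB, by -0.35 (adjusted p = 0.0311). Of 19 regulators 2 fell and 0 rose: the transcription factors Mef2c, by -0.39 (adjusted p = 0.0174), and Bcl11a, by -0.24 (adjusted p = 0.0452). Of 18 surface and presentation genes 2 fell and 0 rose: H2-Ob, by -0.39 (adjusted p = 0.0162), and the Fc receptor-like gene Fcrl1, by -0.28 (adjusted p = 0.0439). Blocked on number set, the calls were 0 rises and 3 falls in the receptor pathway, 1 rise (Spib, a transcription factor, by 0.42, adjusted p = 0.0306) and 2 falls among the regulators, and 2 rises (Cd69 and Cd200) and 2 falls among the surface genes. Median differences of the 3 lists were -0.07, 0.01 and 0.12. Stap1 and H2-Ob passed in all 11 fits with 1 array left out and Mef2c in 10, missing at 0.0517 without exposed array 2.

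Malt1 held in 3 of the 11 fits, Fcrl1 in 2 and Bcl11a in 1. Where they were lost, the differences ran from -0.37 to -0.31 for Malt1, -0.29 to -0.23 for Fcrl1 and -0.27 to -0.21 for Bcl11a; without exposed array 2 their adjusted p-values were 0.0968, 0.0969 and 0.0538. Of 15 measured precursor genes outside the group, the interleukin 2 receptor gene Il2ra rose by 0.55 (adjusted p = 0.0389) and Bcl11a fell; Il2ra held in 3 of 11 fits, with differences from 0.48 to 0.59 where it was lost, and an adjusted p of 0.117 without exposed array 2. Of 6 germinal centre genes the death receptor gene Fas rose by 0.68 (adjusted p = 0.00866), in all 11 fits. Beside these lists, 0.879% of all genes rose and 0.546% fell. Among 11 plasmacytoid dendritic cell genes Cd300c fell by 0.41 on the log2 scale (adjusted p = 0.0338). It held in 3 of the 11 fits, with differences from -0.44 to -0.36 where it was lost and an adjusted p of 0.0977 without exposed array 2. The list leaned the other way, with 7 genes positive and 4 negative, a median of 0.11, and Klk1 the largest at 0.80. Blocked on number set, Spib of this list rose by 0.42 (adjusted p = 0.0306, limma). Such genes are transcribed in more than one blood cell type, and the lists do not assign them to a cell.

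Proliferation genes are a feature of lymphoma cells and of dividing dendritic cell precursors alike. They gave 6 rises among 11 measured genes and 0 falls, where 0.879% of all genes rose and 0.546% fell. Plk1 and Cdc20 were the largest at 0.58 each (adjusted p = 0.00418 for both, in all 11 fits). Of the other 4, Bub1 was lost in 8 of 11 fits, Aurka in 8, Cdk1 in 6 and Ccna2 in 7. In those fits their differences ran from 0.47 to 0.54, 0.35 to 0.43, 0.45 to 0.50 and 0.36 to 0.42 in the same order, and without exposed array 2 all 4 were lost, at adjusted p-values from 0.0681 to 0.126. The mean of the 11 proliferation genes ran from 9.06 to 9.51 on exposed arrays and from 8.77 to 9.03 on naive arrays, without overlap. Over all genes the mean ran from 6.38 to 6.40 on exposed and from 6.36 to 6.40 on naive arrays. The mean of the 16 mature B genes ran from 7.06 to 7.49 on exposed and from 7.13 to 7.38 on naive arrays, and that of the 11 precursor genes from 5.43 to 5.64 and from 5.35 to 5.45. Of the 5 precursor genes of receptor assembly, Vpreb1, Igll1, Rag2 and Dntt were below the dim mark on every exposed and naive array. Vpreb2 was above it, at 5.88 to 6.06 on exposed and 5.81 to 6.00 on naive arrays. Type 2 conventional dendritic cell markers gave 2 falls among 9, Cd209a by -1.02 (adjusted p = 0.00345) and Clec4a4 by -0.43 (adjusted p = 0.0250; 4 of 11 fits, with -0.44 and an adjusted p of 0.0631 without exposed array 2). Of 8 type 1 markers 0 passed in limma (1 at an unadjusted p under 0.05), with Irf8 the largest at 0.17. The part of these lists in the values of Cd22, Il7r and Ighg3 was not tested.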

How the data were processed

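Each sample of total RNA from sorted splenic dendritic cells was biotin-labelled (GeneChip WT PLUS) and read on its own 1-colour Affymetrix array, per the labels' protocols. The deposited values are log2 expression per probeset, made by the authors with RMA, per the submitters' processing notes; its version and the reason for 7329 blank probesets of 41801 are not given in the sources used here. Of 34472 probesets, the 23521 that name 1 gene in the platform table were used, and a gene was taken at its probeset of highest mean over all 11 arrays, which gave 22180 genes; 1814 probesets name several genes and 9137 none. The number of arrays limits the precision.

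Differences (exposed minus naive) were fitted with limma 3.58.1 (lmFit, eBayes with trend) in R 4.3.3 over all genes, with Benjamini-Hochberg adjustment over all genes. The fit was also run on simulated arrays with the same group sizes. Their errors were independent between genes and held no difference between number sets. That run therefore does not check the fit on data with such structure, and no result here rests on it. SE is limma's moderated error. The members, lists and tests were chosen with earlier results of these data known. Immunoglobulin genes are symbols that start with Igh, Igk or Igl and go on with v, d, j, c, m, g, a or e, without Ighmbp2. Named are all listed members, the immunoglobulin constant genes, those that passed and the 5 largest positive differences (none was negative), and in each other list the genes that passed or, with none, the largest difference; Mzb1, Sdc1, Igkj1 and Igkv15-103 were added after their values were seen.

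Alternatives were other variance settings, 3 rescalings, a filter on dim genes, other uses of probesets, blocks, each number set alone and each array left out. The main fit used no pairing by replicate number. Same-numbered arrays correlated by 0.0880 to 0.231 after group means were removed, and 2 of 5 exposed arrays correlated best with their own number. Correlations of differently numbered arrays are not given here, so these values do not settle whether the numbers pair the arrays. The last exposed array is numbered 6 in its title and 5 in its characteristics; the title's number is used.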

Additional observations from a re-analysis of the deposited data

Results flagged for a closer look

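Of 74 groups of values checked, 4 held an array far from the others of its group by Dixon's criterion, close to the 1 in 20 that chance gives. Naive array 1 had Ebf1 at 6.25, where the other naive arrays lay between 5.72 and 5.81. Naive array 2 had Dntt at 4.63, where the others lay between 4.11 and 4.21, all below the dim mark. Exposed array 2 had Vpreb1 at 3.81, where the other exposed arrays lay between 4.06 and 4.09, below the dim mark as well. Exposed array 3 had Igkv9-120 at 9.91, where the others lay between 8.50 and 8.85.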

How the results depend on the processing

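Counts of genes that passed moved with the arrays used and with the scaling. Over all genes, 316 passed between exposed and naive cells, 11 with arrays 1 to 3 alone, 5 with arrays 4 to 6 alone, 617 blocked on number set, and 104 (without exposed array 2) to 395 (without exposed array 6) with 1 array left out. Of the mature genes 1 passed, against 0 in arrays 4 to 6 alone, 2 with a common 75th percentile, quantile normalisation or the number block (Blk and Cd22), 3 with dim genes left out (Blk, Cd22 and Cr2), and 0 to 3 with 1 array left out. Of the precursor genes 1 passed, against 0 in either number set alone and 0 to 1 with 1 array left out. Of the immunoglobulin genes 1 passed, against 0 in arrays 4 to 6 alone and 1 in every fit with 1 array left out. A replicate block gave 182 genes with the characteristics' number and 341 with the title's. With the title's number 2 mature (Cd22 and Cr2) and 2 immunoglobulin genes (Ighg3 and Igkv15-103) passed. Between number sets 731 genes passed, 1521 with median centring, 460 with quantile normalisation and 132 (without exposed array 6) to 725 with 1 array left out; of the 47 genes 2 passed, 4 with dim genes left out or median centring, 1 without the variance trend or with quantile normalisation, and 0 to 4 with 1 array left out. The interaction gave 0 to 7 genes with 1 array left out (7 without exposed array 3). The share of calls that were higher was 61.7% in exposed cells and 43.0% with a common 75th percentile; between number sets it was 80.0%, against 93.9% with median centring and 37.4% with a common 75th percentile. The median of the immunoglobulin genes ran from 0.31 to 0.58 with 1 array left out.

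Of 34 named genes 13 had a turned sign in some alternative; of these only Ighg3 had passed between exposed and naive cells, and its sign turned in its dim probeset. Outside these 13, Igkj1, at 0.33 over all arrays, was at -0.30 in arrays 1 to 3 alone. With arrays 1 to 3 alone the differences were -0.01 for Arpp21, 0.0041 for Fcrla and -0.04 for Vpreb3. With arrays 4 to 6 alone they were -0.13 for Ebf1, -0.07 for Fcer2a, -0.07 for Igll1, -0.04 for Rag2, 0.01 for Sox4 and 0.03 for Vpreb1. A common 75th percentile gave -0.03 for Arpp21, -0.01 for Dntt, -0.03 for Fcer2a and -0.0022 for Igll1, median centring -0.01 for Arpp21 and Fcer2a, quantile normalisation -0.02 for Fcer2a and the number block -0.01 for Fcer2a. A replicate block gave -0.04 for Fcer2a, -0.0017 for Pou2af1 and 0.01 for Sox4. Other probesets gave -0.01 for Ighg3, -0.02 for Ighm and 0.01 for Sox4. With 1 array left out the ranges were -0.01 to 0.03 for Arpp21, -0.01 to 0.11 for Dntt, -0.01 to 0.14 for Ebf1, -0.04 to 0.06 for Fcer2a, -0.06 to 0.1 for Igll1, -0.01 to 0.18 for Pou2af1, -0.11 to 0.02 for Sox4, -0.0016 to 0.12 for Vpreb3. The cause of these changes was not tested.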
